A study of Homo sapiens with 4 samples.

Results

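The miRNAs described here are hsa-miR-34a-5p, hsa-miR-192-5p, hsa-miR-194-5p and hsa-miR-215-5p, which were chosen by name. They are 4 of the 851 human miRNAs on the array, found by the miRNA name of each probe with control spots left out. Total RNA from HCT116, a human colon cancer cell line, was measured on 1-colour (Cy3) Agilent miRNA arrays. The low migratory group, non-MG cells, comprised the cells that stayed on the upper side of a transwell membrane, and the high migratory group, MG cells, those that crossed it, each enriched by repeated rounds of the same selection. Each group had 2 arrays, neither group received an agent or carried an introduced allele, and both are selected subpopulations of the same line, so no other line stands beside them. Whether the arrays of a group came from separate cultures was not stated, so the p-values given here measure the spread between these arrays, which may be technical.

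miRNAs bind partly complementary sites in mRNAs and lower the amount or the translation of those mRNAs. miR-34a is known as a tumour suppressor miRNA that lowers mRNAs for cell cycle and survival proteins such as CDK6, MET and BCL2, and that also lowers SNAI1, a transcription factor of the epithelial-mesenchymal transition. miR-192, miR-194 and miR-215 are known as abundant miRNAs of the normal intestinal epithelium, and miR-192 and miR-215 act on cell cycle mRNAs. A miRNA finds its targets mainly through its seed, bases 2 to 8 from the 5′ end.

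The mature sequences of the 4 miRNAs are shown because their seeds sort them into families and because miR-192 and miR-215 are nearly the same molecule. hsa-miR-449a and hsa-miR-34b-5p are shown with them as relatives of miR-34a-5p. All 4 names were matched in RefSeq (GRCh38.p14). Each line runs 5′ to 3′ with the seed in capitals.
hsa-miR-34a-5p: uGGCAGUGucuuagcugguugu
hsa-miR-449a: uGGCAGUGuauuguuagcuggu
hsa-miR-34b-5p: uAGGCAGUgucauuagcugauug
hsa-miR-192-5p: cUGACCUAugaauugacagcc
hsa-miR-215-5p: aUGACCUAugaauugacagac
hsa-miR-194-5p: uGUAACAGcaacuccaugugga

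The seed GGCAGUG was held by miR-34a-5p and, among the other human miRNAs of the RefSeq table, by miR-449a and miR-449b-5p. That table held no entry for miR-34c-5p, so whether miR-34c-5p shares this seed was not read here. The seed UGACCUA was held by miR-192-5p and miR-215-5p, and GUAACAG by miR-194-5p. miR-192-5p and miR-215-5p were identical at 19 of 21 positions and differed by C1A and C20A, counted from the 5′ end with the base of miR-192-5p first, so both differences lay outside the seed. In the RefSeq annotation MIR34A lies on chromosome 1 within the long non-coding RNA gene MIR34AHG. MIR192 and MIR194-2 lie on chromosome 11 within the long non-coding RNA gene MIR194-2HG, and each is the miRNA gene nearest to the other. MIR194-1 and MIR215 lie on chromosome 1 within the span of IARS2, which encodes a mitochondrial tRNA synthetase, and are likewise each other's nearest miRNA gene. The mature miR-194-5p of its 2 genes is the same sequence, so the array measured them together.

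Of the 4 miRNAs, miR-34a-5p was detected on all 4 arrays and miR-192-5p, miR-194-5p and miR-215-5p on 0 of 4. A miRNA counted as detected where at least 1 of its probes lay above 3 times the error that the scanner software gave for that probe, and 16.3% of the 851 human miRNAs met this on 1 or more arrays. Each of the 4 miRNAs was measured by 2 probes with 8 spots each. With a probe above 2 times its error, or above its error alone, the number of detected miRNAs among the 4 remained 1, while the number among all human miRNAs went from 139 to 166 and 248.

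**Figure D1:**
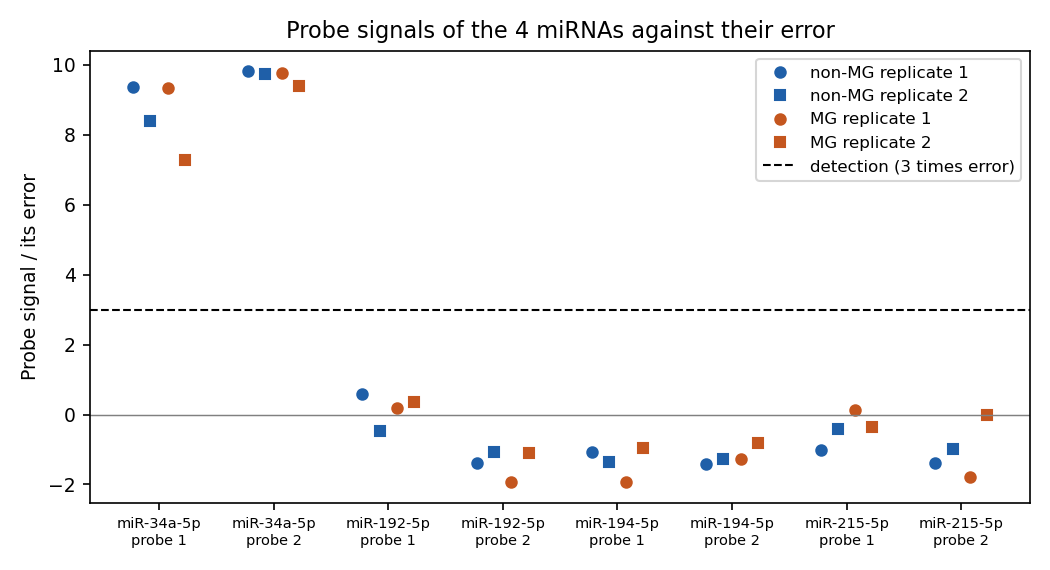
Signal of each probe of the 4 miRNAs divided by its own error (y axis, a ratio without unit) on the 4 arrays, with non-MG arrays in blue and MG arrays in orange, replicate 1 as circles and replicate 2 as squares; the dashed line marks the detection limit of 3 times the error. Both probes of miR-34a-5p lie between 7.28 and 9.82 on every array, and the 24 points of the other miRNAs lie at 0.594 or below.

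The signal of miR-34a-5p was taken as the sum of its probes. It is a linear intensity in the arbitrary units of the scanner, after background subtraction. Before scaling it was 94.7 and 96.7 on non-MG replicates 1 and 2, and 97.8 and 69.5 on MG replicates 1 and 2. The signals of each array were then scaled to a common level, set by the 75th percentile over the 116 miRNAs that every array detected, which lay between 142 and 158 before scaling. The scaled signal of miR-34a-5p was 89.7 and 101.9 in non-MG cells and 96.2 and 70.7 in MG cells. MG replicate 1 thus lay between the non-MG arrays, MG replicate 2 lay below all others, and the groups overlapped.

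The mean scaled signal of miR-34a-5p was 95.8 ± 8.66 (SD, n = 2) in non-MG cells and 83.5 ± 18.0 (SD, n = 2) in MG cells. The fold change, the ratio of geometric means of MG over non-MG, was 0.863 with a 95% interval of 0.702 to 1.06, which is -0.21 on the log2 scale with a standard error of 0.15. This difference did not pass the two-sided limma test over the 57 human miRNAs that were bright enough to be tested (adjusted p = 0.314, Benjamini-Hochberg), whereas 24.6% of those 57 did. Its unadjusted p was 0.160 by limma, where 33.3% of the 57 miRNAs had one under 0.05, and it lay within 1.5-fold, which 7.02% of them exceeded. An exact two-sided permutation test over the arrays gave p = 0.667, where 2 arrays against 2 cannot give less than 0.333. Among the 57 miRNAs, 20 had a lower fold change. Without MG replicate 2 the fold change of miR-34a-5p was 1.01 (limma adjusted p = 0.995), and without MG replicate 1 it was 0.740 (limma adjusted p = 0.0560), so its direction rested on MG replicate 2. The standard error of miR-34a-5p is a spread that limma pooled over the 57 miRNAs. In this fit the pooling was complete, so each of the 57 had the same standard error of 0.15. Their p-values thus do not use the spread of the single miRNA between its own arrays.

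**Figure D2:**
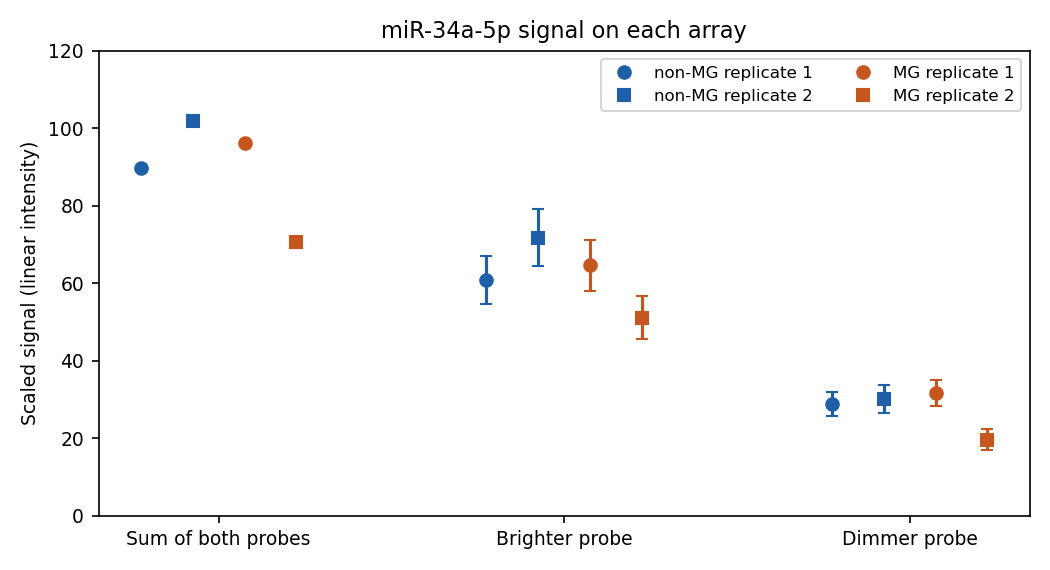
Scaled signal of miR-34a-5p (y axis, linear intensity in arbitrary units) on each array, as the sum of its probes and for each probe; non-MG arrays are blue, MG arrays orange, circles replicate 1 and squares replicate 2, and the bars on the probes are plus and minus the error the scanner software gave. MG replicate 2 is the lowest in each of the 3 sets, with a sum of 70.7, while MG replicate 1, at 96.2, lies between the non-MG arrays.

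Both probes of miR-34a-5p placed MG replicate 2 lowest. The brighter probe had scaled signals of 60.8 and 71.7 in non-MG cells and 64.6 and 51.1 in MG cells, a ratio of geometric means of 0.870. The dimmer probe had 28.8 and 30.2 in non-MG cells and 31.6 and 19.6 in MG cells, a ratio of 0.842. All 8 spots of each probe stood well above background on every array, and 0 spots on the arrays were saturated.

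The single spots, with those flagged as outliers kept, showed the same low array and their own spread. A spot signal is a different measure from the probe signal used above, and the sizes of these measures cannot be compared. For the brighter probe the unscaled probe signal was 64.2 and 68.0 on non-MG replicates 1 and 2. The brighter probe's spots had median unscaled signals of 123 and 124 on non-MG replicates 1 and 2, 125 on MG replicate 1 and 93.6 on MG replicate 2. On MG replicate 2 they ran from 77.8 to 100.5 and on MG replicate 1 from 102 to 144, without overlap. The spots of the same probe ran from 61.1 to 132 on non-MG replicate 1 and from 71.6 to 140 on non-MG replicate 2. Both non-MG arrays thus had single spots as low as those of MG replicate 2. Of this probe's spots, 1 was flagged as an outlier on non-MG replicate 1, 2 on non-MG replicate 2 and 1 on MG replicate 2. On non-MG replicate 2 the lowest spots were 71.6 and 74.5, and the next was 112.7. On non-MG replicate 1 the second lowest spot lay just under 100.5. Which spots were flagged is not given here, so this overlap may rest largely on flagged spots. The dimmer probe's spots had medians of 57.3, 61.2 and 59.9 on non-MG replicates 1 and 2 and MG replicate 1, and 38.0 on MG replicate 2. Their coefficient of variation was 5.25% on non-MG replicate 1 but 41.1% on non-MG replicate 2, where the spots ran from 20.6 to 77.5, and it was 16.7% and 14.8% on MG replicates 1 and 2. The spots of a probe lie on 1 array and share its RNA, so they are no replicates of the cells.

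MG replicate 2 was set against MG replicate 1 to see how far miR-34a-5p stood from other miRNAs on that array. Its scaled signal was 0.735 of that on MG replicate 1, a log2 difference of -0.44. The median difference of the 57 miRNAs between these arrays was -0.07, and miR-34a-5p had the 5th lowest value. Between the non-MG arrays, replicate 2 over replicate 1, the log2 difference of miR-34a-5p was 0.18 and the median 0.07. MG replicate 2 was the lowest of the 4 arrays for 27 of the 57 miRNAs. It also had the fewest miRNAs detected, 118 against 123 to 135, and the lowest share of miRNA spots well above background, 8.71% against 9.62% to 11.1%. The part of these array properties in the low value of miR-34a-5p was not tested. All arrays shared 1 slide, with row 1 of the slide holding non-MG cells and row 2 MG cells, so the row and the group cannot be told apart.

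By the distance between mean-centred log2 signals over the 4 arrays, the miRNAs with the pattern most like that of miR-34a-5p were let-7g-5p (distance 0.184), miR-141-3p (0.199) and miR-106b-5p (0.199), where the median distance to the 56 other miRNAs was 0.392. let-7g-5p, a member of the let-7 family, had scaled signals of 253 and 282 in non-MG cells and 247 and 217 in MG cells. miR-106b-5p, a relative of miR-17, had 75.9 and 73.0 in non-MG cells and 69.8 and 51.2 in MG cells. In each of the 3 the lowest array was MG replicate 2, as in miR-34a-5p. With 4 arrays such a likeness is a description of the arrays.

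Signals of miR-192-5p, miR-194-5p and miR-215-5p lay around or below 0 after background subtraction on every array. The 24 probe values of these 3 miRNAs ran from -2.38 to 0.671 with a median of -1.52, and 0 of them exceeded their own error. The detection limits of these probes were 3.36 to 5.42. For comparison, among the 8320 probe values of the 712 human miRNAs detected on no array, the median was -1.03 and 2.97% exceeded their own error. Of the 64 spots of each of the 3 miRNAs, 0 stood well above background.

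miR-192-5p gave unscaled signals of 0.671 and -0.694 in non-MG cells and 0.229 and 0.624 in MG cells with its first probe. With its second probe it gave -1.55 and -1.59 in non-MG cells and -2.38 and -1.98 in MG cells. The first probe thus had 3 values above 0, found in both groups, and the second had none. miR-215-5p, which differs from it at C1A and C20A, gave -1.14 and -0.619 in non-MG cells and 0.163 and -0.666 in MG cells with its first probe. Its second probe gave -2.20 and -0.0253 in MG cells, with both non-MG arrays between these values and -1.55 as the lower of them. Here 1 value, on MG replicate 1, was above 0, and it lay at 0.133 of its error. miR-194-5p was below 0 throughout, at -1.19 and -2.03 in non-MG cells and -2.38 and -1.73 in MG cells with its first probe, and at -1.59 and -1.90 in non-MG cells and -1.57 and -1.45 in MG cells with its second.

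With both groups below detection, no fold change and no test of MG against non-MG cells is given for miR-192-5p, miR-194-5p or miR-215-5p. Their levels were not detectable on these arrays, which sets a bound and does not show that the miRNAs were absent. In the authors' table of values all 3 are listed at 0.1, the entry for a miRNA that was not detected.

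The other strands and the relatives of the 4 miRNAs were read in the same way. The strands miR-34a-3p, miR-192-3p and miR-194-3p, and miR-34b-5p, miR-34b-3p, miR-34c-5p, miR-34c-3p, miR-449a and miR-449b-5p were detected on 0 of 4 arrays. The miR-34b and miR-34c strands come from a separate miR-34 locus. Of the 92 probe values of these 9 miRNAs, 7 exceeded their own error, and the highest ratio was 2.29, for miR-34b-5p on MG replicate 1, with a signal of 2.90 and an error of 1.27. miR-215-3p and miR-449c-5p were not analysed here.

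Markers of cell types were read beside these results, since miR-192, miR-194 and miR-215 are themselves the markers of intestinal epithelium, of which 0 of 3 were detected. The epithelial miR-200 family was detected with 5 of 5 members on all 4 arrays, with a summed scaled signal of 729 and 669 in non-MG cells and 650 and 630 in MG cells. Of 5 mesenchymal markers, miR-145-5p was detected, on 3 arrays at 4.35 to 9.24 and not on MG replicate 2, and miR-143-3p, miR-199a-5p, miR-199a-3p and miR-214-3p were not. The endothelial marker miR-126-3p was detected on all arrays at 6.61 to 10.3, and the neural miR-9-5p on non-MG replicate 2 alone at 6.96. The markers of blood (0 of 5), liver (0 of 1) and muscle (0 of 3) were not detected. Each array pools the RNA of many cells, so fewer cells with a miRNA and less of it per cell cannot be told apart.

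The miR-200 family and miR-141-3p within it were set beside miR-34a-5p, since miR-141-3p was among the miRNAs with the most similar pattern. miR-141-3p had scaled signals of 115.7 and 121 in non-MG cells and 105 and 77.6 in MG cells, a fold change of 0.761 (limma adjusted p = 0.0411). Both MG arrays lay below both non-MG arrays, as in 40.4% of the 57 tested miRNAs, and 14.0% of the 57 were called lower in MG cells. miR-141-3p no longer passed with non-MG replicate 1 (fold change 0.743, limma adjusted p = 0.225), non-MG replicate 2 (0.779, adjusted p = 0.373) or MG replicate 2 (0.884, adjusted p = 0.746) left out. Such fits leave 1 array in a group, which is assumed to vary like the arrays of the other group. The other tested members of the family, miR-200c-3p and miR-200b-3p, had fold changes of 0.962 and 0.979 and did not pass (limma adjusted p = 0.859 and 0.973). miR-200a-3p and miR-429 were too dim for this test. In a fit of all 115 human miRNAs detected on every array they had fold changes of 0.711 and 0.824 and did not pass (limma adjusted p = 0.125 and 0.368). Nor did miR-141-3p pass in that fit (limma adjusted p = 0.189).

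The miR-17-92 cluster, which promotes proliferation, was detected with 6 of 6 members and 4 were bright enough to be tested. Of these 4, 2 were lower in MG cells by the limma test and 0 were higher, beside 14.0% and 10.5% of all tested miRNAs. All 4 had a fold change below 1, with a median of 0.772, where 40 of the 57 tested miRNAs had one below 1 with a median of 0.945. In 3 of the 4 the groups did not overlap, as in 61.4% of the 57 tested miRNAs, with MG cells lower in 40.4%.

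miR-17-5p had scaled signals of 229 and 285 in non-MG cells and 195 and 187 in MG cells, a fold change of 0.748 (limma adjusted p = 0.0313). miR-92a-3p had 191 and 236 in non-MG cells and 147 and 155 in MG cells, a fold change of 0.713 (limma adjusted p = 0.0125). In both, each MG array lay below each non-MG array. With any 1 of the arrays left out miR-17-5p no longer passed, at fold changes of 0.671 to 0.834 (limma adjusted p between 0.0501 and 0.349). miR-92a-3p no longer passed without non-MG replicate 2 (fold change 0.792, limma adjusted p = 0.245) or MG replicate 1 (0.733, adjusted p = 0.0523). miR-18a-5p was too dim for this test. It had scaled signals of 30.1 and 27.5 in non-MG cells and 17.6 and 12.9 in MG cells, a fold change of 0.524 that passed in a fit of all 115 human miRNAs detected on every array (limma adjusted p = 0.0105). In that fit miR-17-5p (limma adjusted p = 0.139) and miR-92a-3p (0.0862) did not pass, nor did the other members of the cluster, and 9.57% of miRNAs passed, 6.96% lower and 2.61% higher in MG cells. miR-20a-5p and miR-19b-3p had fold changes of 0.797 and 0.881 and did not pass (limma adjusted p = 0.112 and 0.406).

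**Figure D3:**
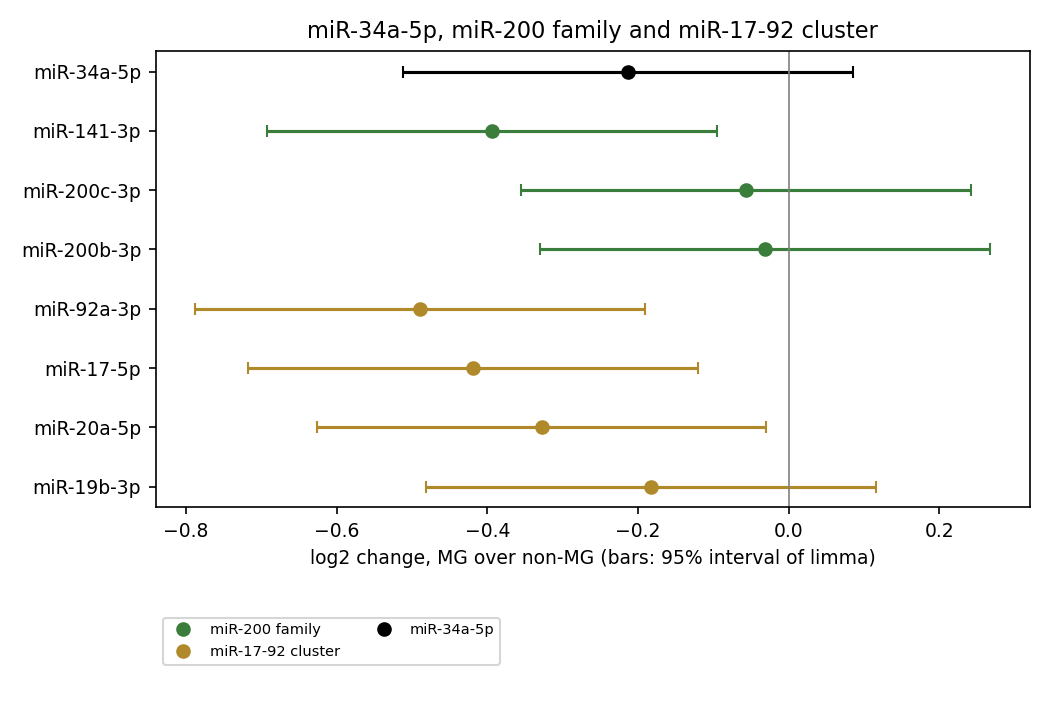
log2 change of MG over non-MG cells (x axis) for miR-34a-5p (black) and for the tested members of the miR-200 family (green) and of the miR-17-92 cluster (brown); bars are limma's 95% intervals. All points lie left of 0, miR-34a-5p at -0.21 with an interval that includes 0, and miR-92a-3p lowest at -0.49.

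The fold change of miR-34a-5p was recomputed under 20 other ways of processing. It was called under none of them, with limma adjusted p-values from 0.0560 to 1. With all 4 arrays kept it lay between 0.738 and 0.931 over 16 alternatives. The filters, the eBayes trend and the replicate block among these left it at 0.863, since they cannot change a ratio of geometric means. The lowest, 0.738, came from the total per miRNA that the scanner files give, which lies above the sum of the probes for 48 miRNAs. For miR-34a-5p that total equals the sum of its probes on every array, so its fold change moved through the scaling alone. The highest, 0.931, came from normexp background correction with an offset of 50, which draws ratios toward 1. From the brightest probe of each miRNA alone the fold change of miR-34a-5p was 0.928, and from the dimmer probes 0.899, with the arrays rescaled on those probes. The probe ratios of 0.870 and 0.842 above keep the scaling of the summed signal.

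**Figure D4:**
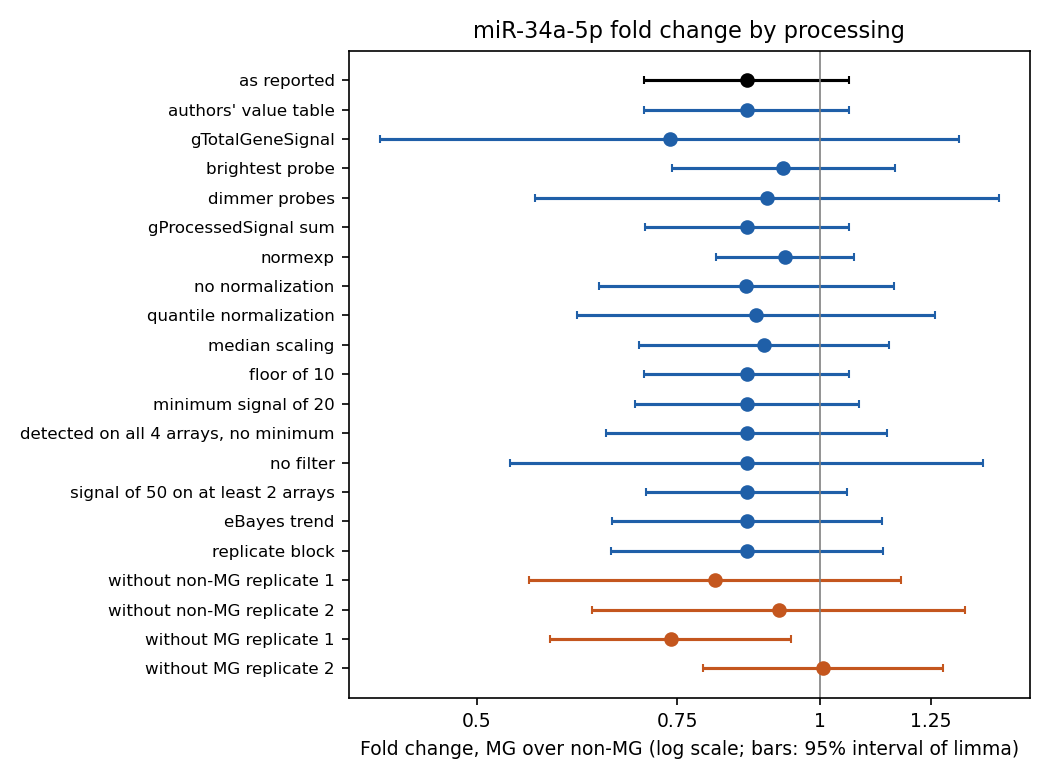
Fold change of miR-34a-5p, MG over non-MG cells (x axis, log scale), as reported (black), under 16 other ways of processing all arrays (blue) and with 1 array left out (orange); bars are limma's 95% intervals. The values with all arrays lie below 1 with intervals that include 1, and leaving out MG replicate 2 gives 1.01.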

How the data were processed

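The deposited scanner files, 1 per array, come from Agilent Feature Extraction 10.7.1.1 per the file headers and give a background-subtracted intensity with its error for each spot and probe, with no normalization between arrays. The deposited table of values holds 1 intensity per miRNA and array, also not normalized, with 0.1 for a miRNA that was not detected. No test for the arrays is given in the study's methods.

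For each miRNA, probes above 3 times their error were summed, and this signal differed from the authors' table by at most 5.73e-05% among detected miRNAs. Each array was scaled by its 75th percentile over the 116 miRNAs that all arrays detected, and log2 was taken after a floor of 1. The 57 human miRNAs that were detected and reached 50 before scaling on 1 or more arrays were compared with limma 3.58.1 (lmFit, eBayes, two-sided, Benjamini-Hochberg, threshold 0.05) in R 4.3.3. Files were read with Python 3.11.15, pandas 2.3.3 and scipy 1.17.1. In 100 simulated sets of 57 miRNAs with 10 changed 2-fold, limma recovered 98.9% of these 10, and 3.61% of its calls were false. These sets drew independent normal noise of the same spread for every miRNA, which is the model that limma fitted. They therefore cannot tell what share of the calls on the real arrays was false. The number of arrays limits the precision.

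The 4 miRNAs, their relatives and the lists were chosen with earlier results of these data known. The miRNAs named are the 4, their other strands and seed relatives, tested list members with values for those called and up to 6 others, and the 3 miRNAs nearest to miR-34a-5p. Differences of change between miR-192-5p, miR-194-5p and miR-215-5p had been planned and could not be computed, since none was detected. Some planned lists are not reported here. Array coordinates follow an older genome build than the RefSeq tables, so none are given. Alternatives covered the signal summary, background correction, scaling, floor, filters, the eBayes trend, a replicate block and leaving out each array. Normexp used the median spot signal and an offset of 50.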

Additional observations from a re-analysis of the deposited data

How the results depend on the processing

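The number of the 4 miRNAs detected was 1 under every detection limit. Leaving out an array could not change it, since miR-34a-5p was detected on all 4 arrays and the others on none. The fold change of miR-34a-5p was 0.863 and stayed below 1 in 19 of 20 alternatives, which include settings that cannot move it (filters, the eBayes trend and the replicate block). With 1 array left out it ran from 0.740 to 1.01, and it passed 1 without MG replicate 2 (1.01). The replicate block left the fold change at 0.863, as balanced arrays require (limma adjusted p = 0.430). Only the replicate number links an MG array to a non-MG array. Deviations from the group mean had a correlation of 0.481 between same-numbered arrays. With 2 arrays per group, the deviations of replicate 2 are those of replicate 1 with the sign reversed. Both pairs therefore must give the same correlation, and it counts as 1 value. limma called 14 of the tested miRNAs, against 0 with the files' totals per miRNA (28 at an unadjusted p under 0.05), 7 with the brightest probe, 5 with the dimmer probes, 6 without normalization, 1 without a filter (31 unadjusted), 8 with the replicate block and 3 to 11 with 1 array left out. MG cells were higher in 6 of the 14 calls. With the brightest probe they were higher in 6 of 7, with median scaling in 7 of 11, with quantile normalization in 6 of 11, with unnormalized signals in 3 of 6, and without a minimum signal or without MG replicate 1 in 3 of 11. The number past 1.5-fold was 4, against 32 with the files' totals, 12 with the dimmer probes, 13 without a minimum signal, 32 without a filter, 1 under normexp and 3 to 5 with 1 array left out. The calls of miR-141-3p, miR-17-5p and miR-92a-3p held in 5, 6 and 12 of 20 alternatives, always below 1. miR-20a-5p was called under normexp, quantile normalization and the eBayes trend. Fits with no minimum or filter tested more and dimmer miRNAs, and for the other changes in the counts the cause was not tested. The dimmer probes, a signal of 50 on at least 2 arrays and the lower detection limits were added after the data had been seen. The 75th percentile over all miRNAs was not used, being the entry for miRNAs not detected, nor the slide as a block, since there was 1 slide. With 8.71% to 11.1% of miRNA spots well above background, the comparison is limited to brighter miRNAs.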
